A study of Mus musculus with 24 samples.

Results

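The kidneys of 6 sham mice, out of 24 samples in the series, are described here as a baseline of gene expression in the undiseased organ. The members were taken from the sample titles (sham replicates 1 to 6), and no measured value entered the choice. The animals were male ICR mice of the outbred stock Crl:CD1(ICR), injected intravenously with vehicle 3 days before grouping and kept on normal feed. Sham thus means the injection without alloxan, and the labels mention no operation and no age. Renal tissue was taken 16 days after grouping, and its total RNA was hybridised to Agilent single-colour arrays, 1 array per sample. The other 18 samples came from mice given 90 mg/kg alloxan, 9 of them on normal feed and 9 on feed with 0.01% enarodustat, and were not used here. The study's design text speaks of 6 mice, but no label ties a sample to an animal, so the spread given here is that between these samples, and part of it may be technical.

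A level is the log2 of a probe's processed signal minus the 75th percentile of all probes on the same array, so a level of 0 lies at that percentile and 1 unit is a doubling. Each of 22911 genes is represented by its brightest probe, and "well above background" is the scanner software's own call for a spot. Between 38402 and 41703 of 59305 spots passed that call on an array, no spot was saturated, and the 75th percentile lay between 149 and 193 signal units. Errors are SDs over the 6 arrays (n = 6) throughout. The arrays lay in pairs on 3 slides: sham 1 and 2 on slide 1, sham 3 and 4 on slide 2, and sham 5 and 6 on slide 3. Pearson correlations across genes were 0.988 to 0.993 in the 3 pairs from the same slide and 0.985 to 0.991 in the 12 pairs from different slides.

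The kidney filters blood in the glomerulus, a capillary tuft wrapped by podocytes, and recovers most of the filtrate along a tubule. The proximal tubule, whose successive parts are called S1, S2 and S3, takes back glucose, amino acids, phosphate and most of the salt and water, makes glucose and burns mainly fatty acids. The loop of Henle with its thick ascending limb, the distal convoluted tubule, the connecting tubule and the collecting duct then adjust salt, acid and water. Tissue of the whole organ holds all of these cells together with vessels, stroma and blood, and in such a sample fewer cells of a type and less RNA per cell cannot be told apart.

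Of the genes named on the array, the brightest was Kap, an androgen-regulated protein of the proximal tubule. Shown with it are Miox, which starts the breakdown of inositol, and Slc34a1, the main phosphate transporter of the brush border. Their promoters are shown as examples of bright proximal tubule genes and for the letters searched in all promoters. Each stretch holds the 250 bases before the annotated start, 5′ to 3′ on the gene's strand, from RefSeq on GRCm38.p6, with matches to TATAAA (the TATA box) and GTTAAT (a core part of the motif of the tubular transcription factor HNF1) in capitals. Both were searched on both strands, and no matches overlapped. The stretches lie at chr6:133853668-133853917 (minus strand), chr15:89334223-89334472 (plus strand) and chr13:55399398-55399647 (plus strand).
Kap: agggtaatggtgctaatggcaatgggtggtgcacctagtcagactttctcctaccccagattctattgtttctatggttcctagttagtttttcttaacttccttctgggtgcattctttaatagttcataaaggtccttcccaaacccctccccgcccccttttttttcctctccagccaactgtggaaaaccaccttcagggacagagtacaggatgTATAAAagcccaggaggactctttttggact
Miox: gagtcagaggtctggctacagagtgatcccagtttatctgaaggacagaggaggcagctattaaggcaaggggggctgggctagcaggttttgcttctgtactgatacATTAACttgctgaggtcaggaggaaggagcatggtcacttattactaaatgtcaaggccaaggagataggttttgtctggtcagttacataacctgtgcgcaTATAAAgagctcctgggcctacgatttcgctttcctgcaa
Slc34a1: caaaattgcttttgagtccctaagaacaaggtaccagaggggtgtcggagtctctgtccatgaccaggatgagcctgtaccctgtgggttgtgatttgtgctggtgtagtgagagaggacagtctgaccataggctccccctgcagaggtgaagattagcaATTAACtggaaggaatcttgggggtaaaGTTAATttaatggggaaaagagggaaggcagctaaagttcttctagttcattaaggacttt
The TATAAA match of Kap begins 31 bases before the start and that of Miox 40 bases before it. Slc34a1 holds GTTAAT once on each strand, 89 and 61 bases before its start. Over the proximal tubule lists together, 42 of 52 genes had a promoter in the table, and GTTAAT or its reverse occurred in 9 of their 56 promoters (16.1%), those of Hnf4a, Pck1, Gc, Acsm2, Slc34a1, Slc7a7, Miox, Slc22a8 and Slc22a6. It occurred in 6.43% of all 32851 promoters in 5.00% of those of genes well above background on every sham array and in 11% of those of the 100 brightest genes. Among other segments it occurred in 3 of 14 promoters (21.4%) both for thick ascending limb and for intercalated cell genes, and in 0 of 12 for principal cell genes. TATAAA or its reverse occurred in 8 of the 56 (14.3%), against 12.4% of all promoters and 8.12% of those of genes well above background on every array. These are matches of letters, given as a description.

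Of the 22911 genes, 15736 (68.7%) were well above background on all 6 arrays, 2557 (11.2%) on 1 to 5 and 4618 (20.2%) on none. Mean levels ran from −7.49 for the dimmest gene to 9.50 for Kap. The 10 brightest genes took 3.42% to 3.78% of the summed gene signal of an array, the brightest 100 took 21.4% to 23.2%, and the brightest 1000 took 64.0% to 65.7%. Probe signals depend on the probe as well as on the RNA, so their order is not an order of transcripts. As a yardstick, in 4367 genes with 2 probes well above background on every array, these differed by a median of 2.19 log2 units (4.56-fold), and the 95th percentile was 5.52 (46.0-fold). Of the probes, 23611 carried no gene name and enter no value below. Among them 10577 (44.8%) were well above background on every sham array, the brightest at a mean level of 10.16, above that of Kap.

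Among the 30 genes of highest level were genes of the proximal tubule, of oxidative phosphorylation and of iron storage, and genes on none of these lists. Of the 30, 7 were on the proximal tubule lists (52 genes measured) and 2 on the list of nuclear-encoded oxidative phosphorylation genes (47 measured). The level of Kap ran from 9.35 to 9.66 with a median of 9.52 (9.50 ± 0.12). Miox ran from 9.26 to 9.44 around a median of 9.34 (9.35 ± 0.08). Both kept within 1.24-fold over the 6 mice, with no array apart from the rest. Others from the tubule were Fxyd2, a subunit that tunes the sodium pump (9.26 ± 0.15), Acy3, an aminoacylase of the late proximal tubule (9.26 ± 0.17), Slc27a2, a fatty acid transporter and acyl-CoA synthetase (8.95 ± 0.21), and Acsm2, a medium-chain acyl-CoA synthetase (8.93 ± 0.06). Cox6a1 of cytochrome c oxidase (9.36 ± 0.16) and Atp5b of ATP synthase (8.93 ± 0.12) stood for oxidative phosphorylation. The ferritin chains Ftl1 (9.29 ± 0.12) and Fth1 (9.23 ± 0.13) and Gpx3, the plasma glutathione peroxidase made in the kidney (8.96 ± 0.13), were also among the 30.

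Not every bright probe can be read as an abundant transcript. Of the 30 genes, 16 had more than 1 probe, and in 7 of them (Elk1, Ttc38, Med16, Slc10a1, Pbld1, 2610028H24Rik and Medag) every other probe lay lower by more than the 95th percentile of the yardstick. Elk1, a transcription factor, averaged 9.22 on 1 probe and −2.82 on its other probe. Medag averaged 8.82 on 1 probe, and its other probe, at −7.14, was not well above background on any array. Slc10a1, the bile acid carrier known from liver, averaged 9.00 and −1.11. When a gene was represented by the median of its probes instead, 15 of the 30 stayed among the 30 brightest, and which probe reports the transcript was not tested.

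Markers of every epithelial segment of the tubule were measured, and their levels differed between the lists (see the plot of markers by segment and cell type). All 32 general proximal tubule genes were well above background on every array, with a median level of 6.42 (range 1.29 to 9.50), against −1.48 over all genes. Beyond those above, Slc34a1 ran from 8.01 to 8.32 with a median of 8.11 (8.14 ± 0.13). The endocytic receptor Lrp2, or megalin, ran from 6.57 to 7.30 around a median of 7.16 (7.07 ± 0.27), with sham 5 the lowest. The nuclear factor Hnf4a averaged 7.01 ± 0.13 and the water channel Aqp1 7.01 ± 0.11. Mme, or neprilysin, was the lowest of the 32 at 1.29 ± 0.20.

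Within the proximal tubule, the list of S2 and S3 had a median of 5.38 (14 of 14 genes on every array) and that of S1 a median of 2.76 (5 of 6). The S1 glucose transporter Slc5a2 (SGLT2) averaged 7.01 and ran only from 6.93 to 7.09. In the later parts, Cyp4b1, a cytochrome P450, averaged 8.29 ± 0.13 and the organic anion transporter Slc22a7 6.89 ± 0.32. Slc5a1 (SGLT1), the glucose transporter of S3, averaged −1.71 ± 0.17 and was still above background on every array. Slc36a2, an amino acid transporter placed in S1, was not well above background on any array.

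Thick ascending limb genes had a median of 2.84 (12 of 12 on every array). Umod, uromodulin, the main protein of normal urine, ran from 8.11 to 8.36 with a median of 8.30 (8.28 ± 0.09). The growth factor Egf averaged 6.85 ± 0.17, the potassium channel Kcnj1 5.07 ± 0.05 and the furosemide-sensitive cotransporter Slc12a1 4.02 ± 0.11. The distal convoluted tubule list (median 2.07, 8 of 8) was led by Pvalb, parvalbumin (4.61 ± 0.24), with the thiazide-sensitive cotransporter Slc12a3 at 2.43 ± 0.22. The connecting tubule list (median 3.10, 6 of 6) was led by the kallikrein Klk1 (6.92 ± 0.21) and the calcium-binding S100g (6.75 ± 0.20) and Calb1 (5.55 ± 0.24).

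In the collecting duct, principal cell genes had a median of 0.83 (14 of 14) and intercalated cell genes 1.81 (18 of 18). The vasopressin-regulated water channel Aqp2 ran from 2.74 to 3.45 around 3.03, and Aqp3, the exit channel of the same cells, averaged 4.32 ± 0.13. Intercalated cells were represented by the proton pump subunit Atp6v0a4 (4.81 ± 0.14), the anion exchanger Slc26a4, or pendrin (3.79 ± 0.21), and the ammonia channel Rhcg (3.62 ± 0.17). The thin limb list (median −0.02) was on every array for 8 of 10 genes. Of 3 macula densa genes, Nos1 was not well above background on any array and Ptgs2 only on 2.

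All podocyte, endothelial, mesangial and smooth muscle genes measured were well above background on every array. Podocyte genes had a median of 0.25 (14 of 14), among them Clic5, a chloride intracellular channel protein of the foot processes, which ran from 2.82 to 3.41 with a median of 3.24. Endothelial genes had a median of 1.19 (19 of 19), with Egfl7 at 4.84 ± 0.13 and Emcn at 3.83 ± 0.12. Ren1, renin, averaged 0.58 ± 0.36. Of blood and immune lists, macrophage and dendritic cell genes were on every array for 16 of 16 (median −0.11), T, B and NK cell genes for 13 of 16 (median −2.73) and neutrophil genes for 6 of 8 (median −3.24).

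Lists for tissues that adjoin the kidney or are foreign to it had low medians but not without exception. Urothelial genes had a median of −3.97, adrenal cortex −4.35, adipocyte −5.14, skeletal muscle −6.11, neuron −4.17, testis germ cell −3.62 and hepatocyte −2.45, the last with 7 of 10 genes on every array. Defining genes at no array above background were Adipoq, Plin1, Retn and Ucp1 for fat, Cyp11a1 and Cyp11b2 for the adrenal cortex, Ckm, Mb, Myh2 and Myh4 for muscle, and Ahsg and Apoa1 for liver. The high members of these lists included Cyp2e1 (8.34 ± 0.30) of the hepatocyte list and Lpl (6.01 ± 0.16) and Pck1 (7.17 ± 0.31) of the adipocyte list, genes that kidney cells are known to express too. The pancreas list differed between mice and is taken up below. Of 7 Y-linked genes, Eif2s3y, Kdm5d, Uty and Ddx3y were above background on every array of these male mice and the other 3 on none.

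**Figure D1:**
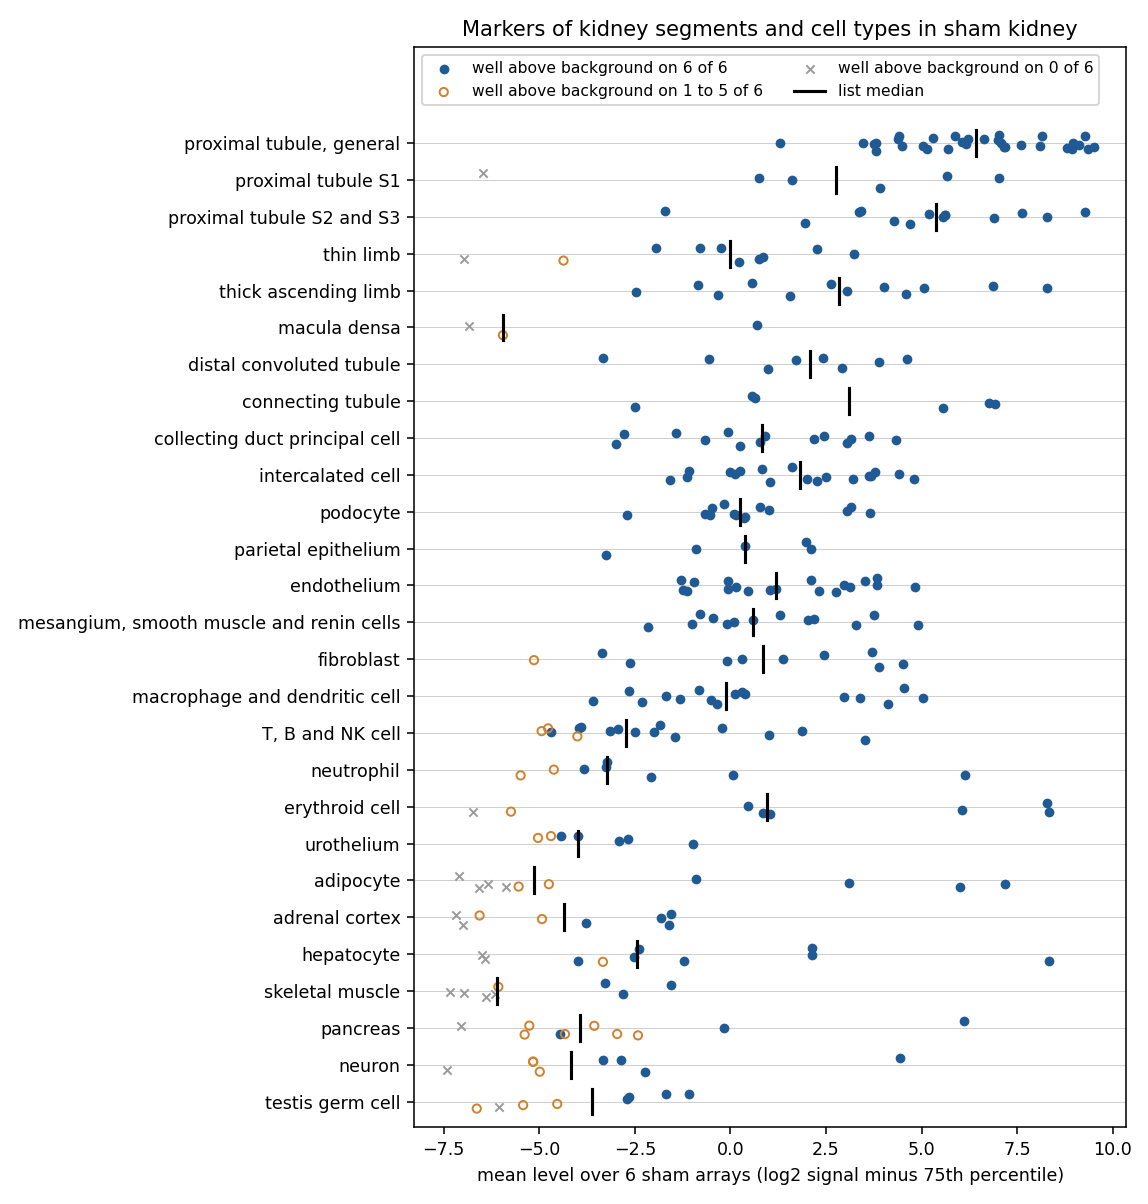
Mean level over 6 sham arrays of each marker gene (x axis, log2 signal minus the array's 75th percentile), grouped by list; filled points were well above background on 6 arrays, open circles on 1 to 5, crosses on none, and the black bar is the list median. The general proximal tubule list has the highest median (6.42), and the lists of muscle, fat and adrenal cortex the lowest among tissues outside the kidney (−6.11, −5.14 and −4.35).

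Enzymes and transporters encoded by families of genes showed one or a few bright members each. Over 33 families with 252 measured genes, 218 genes were above background on every array, 16 on some and 18 on none. In 32 families the same member was brightest on all 6 arrays, and in 20 every probe of that member lay above every probe of the others. A brightest member with only 1 probe meets this by construction, since each gene is represented by its brightest probe. Of the 20, only Eno1, Pkm and Ckmt1 had more than 1 probe. The gap to the next member exceeded the 95th percentile of the probe yardstick (5.52) in 3 families, among them the enolases and the pyruvate kinases. For the other 30 families the level order lies within what 2 probes of 1 gene can differ by. With the median over probes, 26 of 33 families kept the brightest member, and all 33 did under each of 5 other settings. Most of these 5 could hardly have changed it. Scaling over detected probes shifts all genes of an array alike, and keeping outlier-marked spots left the gaps as they were. Quantile normalization keeps the order within an array, so a member brightest on all 6 arrays stays so. Only normexp background correction and the deposited values could readily have given another brightest member. These are not separate checks, as the deposited values closely follow normexp with quantile normalization.

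In the families of glucose use, Eno1, the common enolase (6.77 ± 0.09), stood 6.41 above Eno3, the muscle enolase. Pkm (4.16 ± 0.17) stood 5.97 above Pklr, the pyruvate kinase of liver and red cells, which is also ascribed to the proximal tubule (−1.81 ± 0.20). Hk1, the widespread hexokinase, ran from 3.38 to 3.68 around 3.49, while Hk2 was above background on 4 arrays and ran from −5.36 to −4.54. The other Hk1 probe, above background on every array, averaged −3.61. With the median over probes, the gap from Hk1 to the next hexokinase fell from 4.13 to 0.56. The widespread aldolase Aldoa averaged 8.22 ± 0.16. The lactate dehydrogenases Ldhb (8.49 ± 0.15) and Ldha (8.03 ± 0.15) lay within the yardstick of each other. For glucose production, Fbp1, fructose bisphosphatase, averaged 8.80 ± 0.17, Pck1, the cytosolic PEP carboxykinase, 7.17 ± 0.31, and G6pc, which releases free glucose, 6.19 ± 0.32. Their counterparts Fbp2, Pck2 and G6pc2 averaged −0.31, 0.88 and −4.86, with G6pc2 above background on 4 arrays. A further counterpart of G6pc, G6pc3, was above background on every array at 4.50 ± 0.17, within the yardstick of G6pc.

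Hmgcs1, a synthase that feeds cholesterol synthesis (6.74 ± 0.24), was brightest in sham 2. In cytochrome c oxidase the widespread isoforms Cox6a1, Cox8a (8.62 ± 0.18), Cox4i1 (7.98 ± 0.20) and Cox7a2 (7.58 ± 0.15) were bright. Of the isoforms known from muscle, lung or testis, Cox7a1 averaged 3.88 ± 0.28 and was above background on every array. Cox6a2 averaged −0.31 ± 0.99 and Cox4i2 −0.57 ± 0.31, Cox8b was above background on 4 arrays and Cox8c on none.

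Among transporters, the fructose carrier Slc2a5 (GLUT5) was the brightest of 12 GLUT genes and ran from 4.42 to 5.18 (median 4.80), and Slc2a2 (GLUT2), the glucose exit route of the proximal tubule, averaged 0.76 ± 0.17. The aquaporins were headed by Aqp1 and Aqp3, followed by Aqp6, Aqp11 and Aqp2 at 3.21, 3.13 and 3.04, and Aqp12 and Mip were on no array. Among phosphate transporters Slc34a1 and Slc34a3 (4.92 ± 0.07) were above background on every array and the intestinal form Slc34a2 on none. Slc12a1 was the brightest of 9 cation-chloride cotransporters.

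For the oxygen-sensing system, which degrades the HIF transcription factors through prolyl hydroxylases, all 10 measured genes were on every array. Epas1, which encodes HIF-2 alpha, ran from 4.55 to 4.84 (4.69 ± 0.11), and Hif1a from 2.18 to 2.36 (2.24 ± 0.07). The hydroxylases Egln2 (5.10 ± 0.17) and Egln1 (4.17 ± 0.08) were brighter than Egln3 (−1.58 ± 0.29), the form that hypoxia induces. The SD of Hif1a was 0.49 times the median SD of genes of like level (the same 10% by level), and the median of that ratio over the 10 genes was 0.89. Hif3a, which encodes a further alpha subunit, averaged −2.13 ± 0.39.

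**Figure D2:**
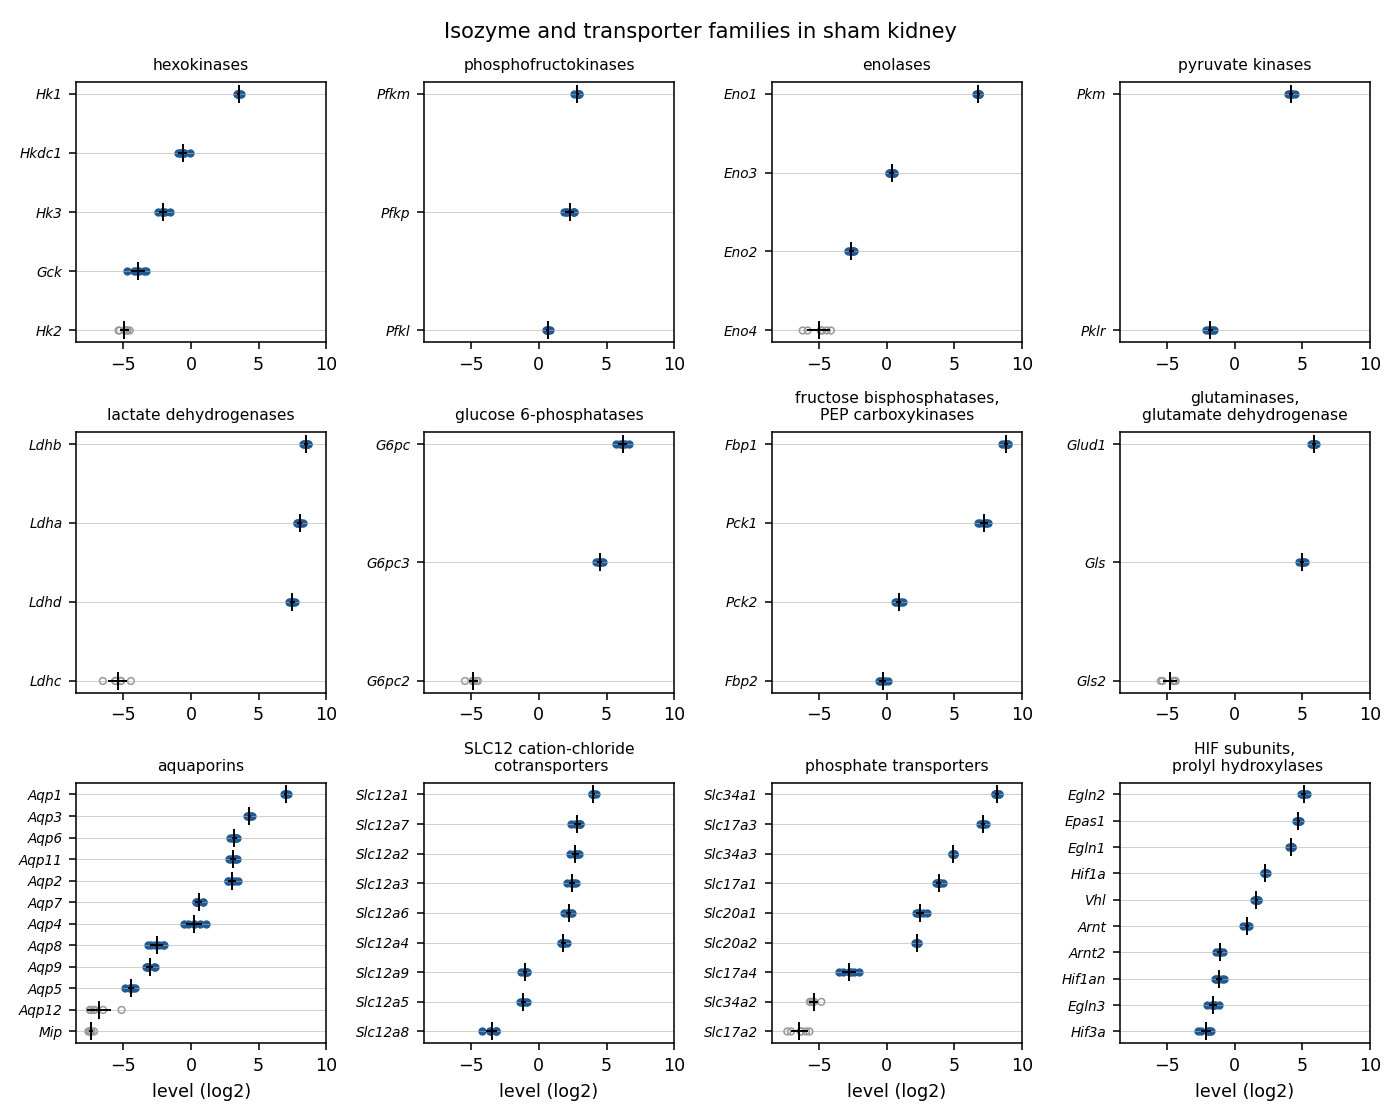
Levels (x axis, log2 signal minus the array's 75th percentile) of the members of 12 families on each of 6 sham arrays, with the mean as a bar and the SD as a line; open points mark genes above background on fewer than 6 arrays. The order of members was nearly the same on every array, and the gaps of Eno1 and Pkm over the next member are 6.41 and 5.97.

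Sham kidneys differed little from each other at most genes. Over the 15736 genes above background on every array, the median SD was 0.18 log2 units (1.14-fold), with 5th and 95th percentiles of 0.08 and 0.58. The SD was below 0.2 in 8749 genes (55.6%). The range over 6 mice reached 1 log2 unit in 2473 genes (15.7%), 2 units in 296 (1.88%) and 4 units in 24. Dim genes were noisier, with a median SD of 0.34 in the dimmest 10% and 0.14 at its lowest, in the eighth of the 10 level groups. With normexp background correction the order turned, with 0.09 in the dimmest 10% and 0.13 in the eighth group. That setting adds an offset of 50 before the log, which narrows log2 differences most among dim genes. The turned order therefore cannot show that dim genes are less noisy. For 295 probes with 10 spots each, the median SD was 0.04 between spots of 1 array and 0.13 between arrays. The spread between spots leaves out RNA preparation, labelling and hybridisation, so the part of these in the spread between arrays was not measured.

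**Figure D3:**
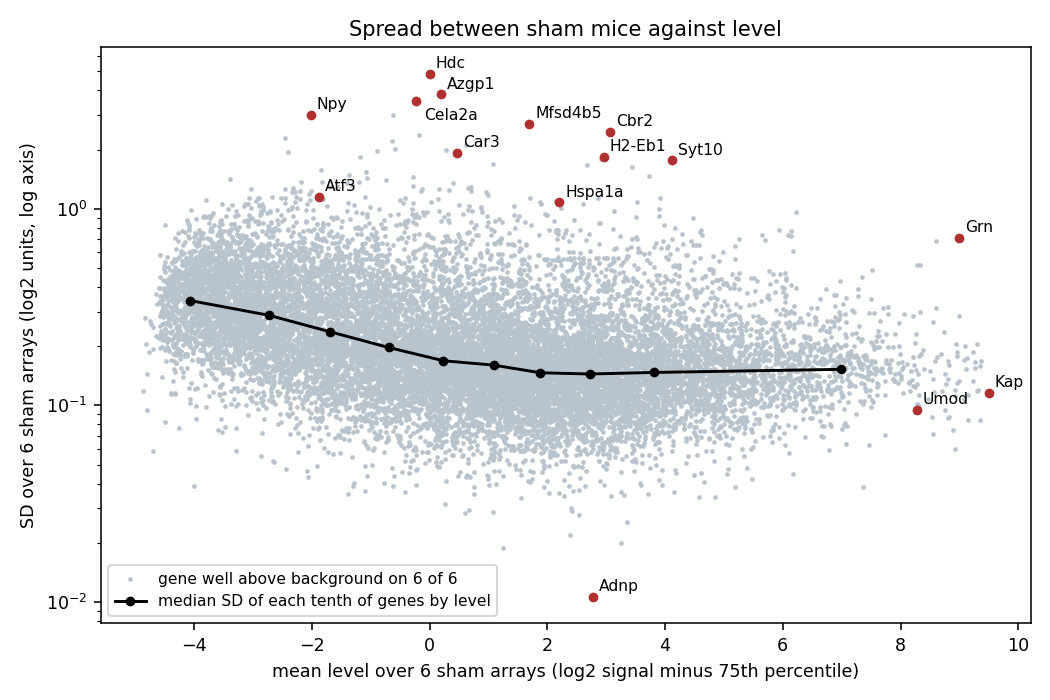
SD over 6 sham arrays (y axis, log2 units on a log axis) against mean level (x axis) for 15736 genes above background on every array, with the median SD of each 10% by level as a black line and named genes in red. The line falls from 0.34 among the dimmest genes to 0.14 in the eighth of the 10 groups under this scaling. With normexp, whose offset narrows differences most among dim genes, it rises from 0.09 to 0.13. Hdc, Azgp1 and Cela2a lie above 3.

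Among the brighter 50% of genes, Adnp, a chromatin remodelling factor, had the smallest SD (0.011) and ran from 2.77 to 2.80. Eprs and Tars, which charge transfer RNA, had SDs of 0.026 and 0.029, and Casc3, a core protein of the exon junction complex, 0.030. By list, proteasome subunits had a median SD of 0.12 (25 of 25 on every array), cytosolic ribosomal proteins 0.13 (34 of 34) and oxidative phosphorylation genes 0.16 (47 of 47). Relative to genes of like level these medians were 0.81, 0.88 and 1.08 times the usual SD. Common reference genes did about as well, with a median of 0.15, from 0.10 for Eef2 to 0.46 for Gusb, beta-glucuronidase. Gusb ran from 4.63 to 5.74 and was highest in sham 1 and 4.

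At the other end stood genes whose levels fell into separate high and low groups of mice, with no mouse between (see the plot of genes with widely separated arrays). Hdc, histidine decarboxylase, which makes histamine, had the largest SD (4.88). Its level was 4.17 in sham 1, 4.27 in sham 4 and 4.89 in sham 5, and −4.73, −4.59 and −4.00 in sham 2, 3 and 6. The range of 9.62 log2 units is 785-fold, the high mice lay on 3 different slides, and the second Hdc probe was above background in the same 3 mice alone, at −0.48, −0.54 and 0.08.

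Azgp1, a secreted glycoprotein known for lipid mobilisation, was at 2.75, 4.69 and 3.43 in sham 1, 2 and 6 and between −3.70 and −3.02 in the other mice. Npy, neuropeptide Y, was at 0.80, 0.53 and 0.82 in sham 1, 4 and 6 and between −4.94 and −4.57 in sham 2, 3 and 5. Cbr2, a carbonyl reductase, was at 4.56, 5.78 and 5.47 in sham 1, 2 and 4 and between 0.43 and 1.15 in the rest, and its second probe was highest in the same 3 mice (1.25 to 2.42 against −1.73 to −1.05). Each of these splits the 6 mice into 3 and 3, and the splits differ from gene to gene.

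In other genes a single mouse stood apart. Mfsd4b5, a membrane carrier of the major facilitator family, ran from 2.68 to 3.07 in 5 mice and was at −3.82 in sham 4. H2-Eb1, an MHC class II chain, ran from 3.36 to 4.30 in 5 mice and was at −0.73 in sham 1, while Cd74, the class II invariant chain, averaged 3.38 ± 0.25. H2-DMb1, which helps load class II molecules, ran from 1.23 to 2.26 and was at −3.60 in sham 5. Pla2g2c, a secreted phospholipase, was at 1.47 in sham 5 and between −3.62 and −2.66 elsewhere. A pair of genes was picked after their values were seen. BC018473 was above background in sham 2 alone (3.51), and Gstp3, a glutathione transferase, reached 0.98 in sham 6 against at most −4.18 elsewhere. Whether such values reflect expression or a difference under the probe was not tested.

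In a further set no gap between mice next to each other in level reached 3 log2 units, though Ftcd also split 3 mice from 3. Syt10, a synaptotagmin, ran from 1.41 in sham 2 to 6.17 in sham 1, Dnm1, a dynamin of nerve cells, from 0.20 to 5.17 in the same mice, and Grn, progranulin, from 7.86 in sham 2 to 9.69 in sham 3. Other probes of Dnm1 and Grn did not move alike: the second Dnm1 probe ranged over 0.30 log2 units, and the other Grn probes over 0.32 and 0.59. The other Syt10 probe was above background on 1 array only, so it cannot show whether the transcript moved. Of the 25 genes with the largest SD, 8 had more than 1 probe, and in 3 (Hdc, Amy1 and Cbr2) every other probe peaked in the same mouse over at least 50% of the range. Bcl6, a transcriptional repressor with male-biased roles in liver, ran from 1.17 in sham 1 to 5.19 in sham 5, and Ftcd, of histidine breakdown, was at 4.05 to 4.38 in sham 1, 5 and 6 and at 0.80 to 1.57 in the rest. Car3, a carbonic anhydrase of muscle and fat, ran from −2.29 in sham 5 to 3.03 in sham 4.

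**Figure D4:**
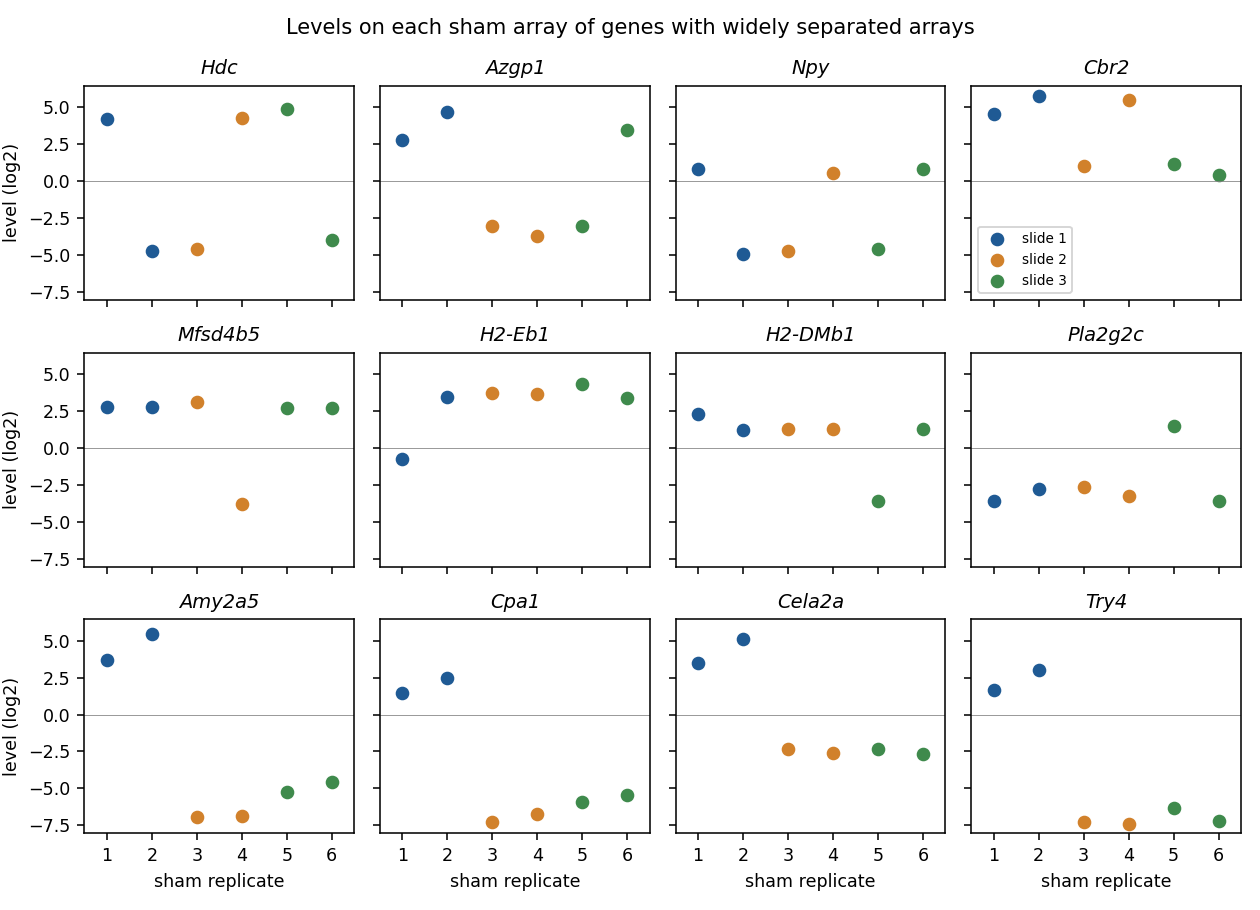
Level (y axis, log2 signal minus the array's 75th percentile) of 12 genes on each sham array (x axis, replicate number), coloured by slide. Hdc, Azgp1, Npy and Cbr2 each split 3 mice from 3, Mfsd4b5, H2-Eb1, H2-DMb1 and Pla2g2c set 1 mouse apart, and the pancreatic genes Amy2a5, Cpa1, Cela2a and Try4 were high in sham 1 and 2 alone.

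Genes of the exocrine pancreas were high in sham 1 and 2 and low in the other 4 mice. Amy2a5, pancreatic amylase, was at 3.71 in sham 1 and 5.42 in sham 2 and ran from −6.96 to −4.54 in sham 3 to 6. Cela2a, an elastase, was at 3.45 and 5.12 against −2.66 to −2.32. The trypsin Try4 (1.67 and 3.00), the carboxypeptidase Cpa1 (1.48 and 2.49) and the lipase Pnlip (−0.01 and 1.67) were above background on these 2 arrays alone. A list of 25 pancreatic genes was drawn up after the first of these had been seen. In 22 of them both sham 1 and sham 2 lay above all other mice, and sham 2 was the highest in 23. The exceptions to the first were Prss1, Cela1 and Spink1. The insulin gene Ins1 did not follow, averaging −4.46 ± 0.21 on all 6 arrays, and Gcg, glucagon, was on none. The other insulin gene, Ins2, was above background on some arrays but not all, and its levels are not reported here.

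Sham 1 and 2 were also the only sham arrays of slide 1, so slide and mouse cannot be told apart for these genes. A test for any difference between the 3 slides (limma's moderated F-test with Benjamini-Hochberg adjustment, 17561 genes above background on at least 2 arrays) called 69 genes, or 0.393% of those tested. Of the 69, 14 were on the pancreatic list (24 tested), which was drawn up after the pattern had been seen. Among its 25 genes, 12 were above background on no array of slides 2 and 3. Those of the 12 that were tested thus passed the filter through slide 1 alone. Neither the count nor the p-values of these genes are therefore separate support for the pattern. The smallest adjusted p of limma's test was 0.0137, shared by Amy2a5, Cela3a, Cpa1, Prss3, Try4, Smg8, Olfr165 and Olfr694. The other 55 called genes were dim, with a median level of −4.48, 22 of them above background on every array and 11 of them olfactory receptors, and 39 had their highest mean on slide 3. Outside the list for pancreas, no gene on the lists for kidney segments, other tissues, isozymes or processes was called. Leaving out any 1 array, which leaves its slide with a single array assumed to vary like the rest, left between 0 and 4 calls, with 3 without sham 1, 4 without sham 2, 1 without sham 3 and 0 without sham 4, 5 or 6. Other scalings gave between 0 (the deposited values) and 159 calls (the 75th percentile over detected probes). The deposited values hold only probes above background on every sham array, so called genes such as Try4 and Cpa1 were not tested there.

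Among the lists of processes, genes that respond within minutes to hours differed most between mice, relative to genes of like level. Immediate early genes, induced by stress or growth signals before new protein is made, had a median SD of 0.49, which is 2.88 times that of genes of like level. Sham 4 was highest in 15 of 22 (68.2%) of them and sham 1 lowest in 14 (63.6%), where over all genes sham 4 was highest in 16.9% and sham 1 lowest in 15.3%. The list's mean deviation from the gene means was 0.63 in sham 4 and −0.65 in sham 1. Fos ran from 0.30 in sham 1 to 2.78 in sham 4, and Nr4a1, an orphan nuclear receptor, from 1.75 to 4.55 in the same mice. Atf3, a stress-induced factor, was at 0.24 in sham 4 and at most −1.49 in the others. Dusp1, a phosphatase that ends MAP kinase signalling, was at 2.90 in sham 1 and between 4.22 and 5.02 in the others.

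The heat shock list had its highest mean in sham 4 too (0.48), with sham 6 lowest (−0.40). The inducible chaperones Hspa1a and Hspa1b ran from 1.04 to 3.85 and from 0.52 to 2.86, while Hsp90ab1, a constitutive chaperone, averaged 7.49 ± 0.17. The circadian clock list had a median SD 2.17 times that of genes of like level. Its output factor Dbp was highest in sham 4 (5.55) and lowest in sham 6 (3.79), and Arntl, or Bmal1, whose rhythm runs opposite to it, was lowest in sham 2 and 4 (−1.48 and −1.47) and highest in sham 5 and 6 (−0.27 and −0.38). The labels do not state the hour of tissue collection.

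Interferon response genes had a low mean in sham 5 (−0.50), which was lowest in 13 of 17 (76.5%), against 15.7% of all genes. Isg15, a ubiquitin-like protein, ran from 1.12 to 1.41 in 5 mice and was at 0.34 in sham 5. MHC class I genes were lowest in sham 5 as well (mean −0.45, 8 of 12). H2-D1 was at 2.85 and H2-Q7 at 2.20 in sham 5, against 4.30 to 5.50 and 3.69 to 4.84 in the others. B2m, the light chain shared by class I molecules, averaged 6.19 ± 0.15.

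PPAR alpha targets, genes of fatty acid oxidation and storage that fasting induces, were highest in sham 2 in 12 of 17 (70.6%), with a mean of 0.41, against 12.7% of all genes. Plin2, the lipid droplet coat protein, was at 3.27 in sham 2 and 3.02 in sham 3 and between 1.00 and 1.62 in the others. Sham 2 also had the highest mean for drug-metabolising cytochromes P450 (0.43), with Cyp2b10 at 2.23 against 0.05 to 1.23. Sham 2 was also the mouse with the highest levels of most pancreatic genes, and the part of that in these values was not tested.

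Blood and epithelial lists moved as well. Erythroid genes were lowest in sham 1 (mean −0.55) and highest in sham 3 (0.41), with Hba-a1, alpha globin, from 7.60 to 9.01, and the list's median SD was 3.11 times that of genes of like level. T, B and NK cell genes were highest in sham 4 (0.36) and lowest in sham 2 (−0.29), and Jchain, which joins antibody molecules, ran from 1.76 in sham 2 to 4.97 in sham 4. Principal and intercalated cell genes had their highest means in sham 5 (0.29 and 0.24). Thin limb genes were highest in sham 5 (0.29) and lowest in sham 2 (−0.41), with Cryab, a small chaperone of the inner medulla, at 4.23 and 2.32 there. Urothelial genes, of the lining of the renal pelvis, were highest in sham 5 (0.50) and lowest in sham 2 (−0.56) over 5 genes. Their range over arrays fell from 1.07 to 0.30 with normexp, where sham 6 was lowest, and to 0.31 with the deposited values. The labels do not state how much medulla and pelvis each sample held.

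Male-biased kidney genes, many of them androgen-dependent, had their highest mean in sham 4 (0.26). Sham 4 was highest in 9 of 17 (52.9%) of them, against 16.9% of all genes. Within that list Kap had an SD of 0.12, whereas Srd5a2, a steroid 5-alpha-reductase, ran from −1.77 in sham 5 to 1.12 in sham 4. Genes of tubular injury had a median level of −0.64 over 20 measured. Havcr1, or Kim-1, ran from −3.95 to −2.27 with a median of −3.73, and Lcn2 from −2.35 to −1.54 with a median of −1.59. Cxcl1, a chemokine, was at −0.46 in sham 1 and between 1.22 and 2.57 in the others.

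For bright and steady lists the array effect depended on the scaling. Oxidative phosphorylation genes were highest in sham 3 in 41 of 47 and lowest in sham 6 in 40 of 47, with means of 0.21 and −0.21, where over all genes sham 3 was highest in 28.3% and sham 6 lowest in 32.2%. The brightest 10% of all genes above background on every array had median deviations of 0.13 in sham 3 and −0.16 in sham 6 as well. Under quantile normalization, which gives every array the same distribution, the range of the list's means over arrays fell from 0.42 to 0.09, and that of the general proximal tubule list from 0.23 to 0.08 with other mice at its ends. The same mice were highest and lowest under all 7 settings compared for oxidative phosphorylation, immediate early, heat shock, interferon, MHC class I, PPAR alpha and erythroid genes. Not all of these settings are separate, since the deposited values closely follow normexp with quantile normalization. With the deposited values the range fell from 0.75 to 0.43 for interferon genes, from 0.77 to 0.40 for cytochromes P450, from 0.51 to 0.31 for principal cell genes and from 0.44 to 0.29 for intercalated cell genes. With normexp it fell from 0.66 to 0.37 for T, B and NK cell genes.

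**Figure D5:**
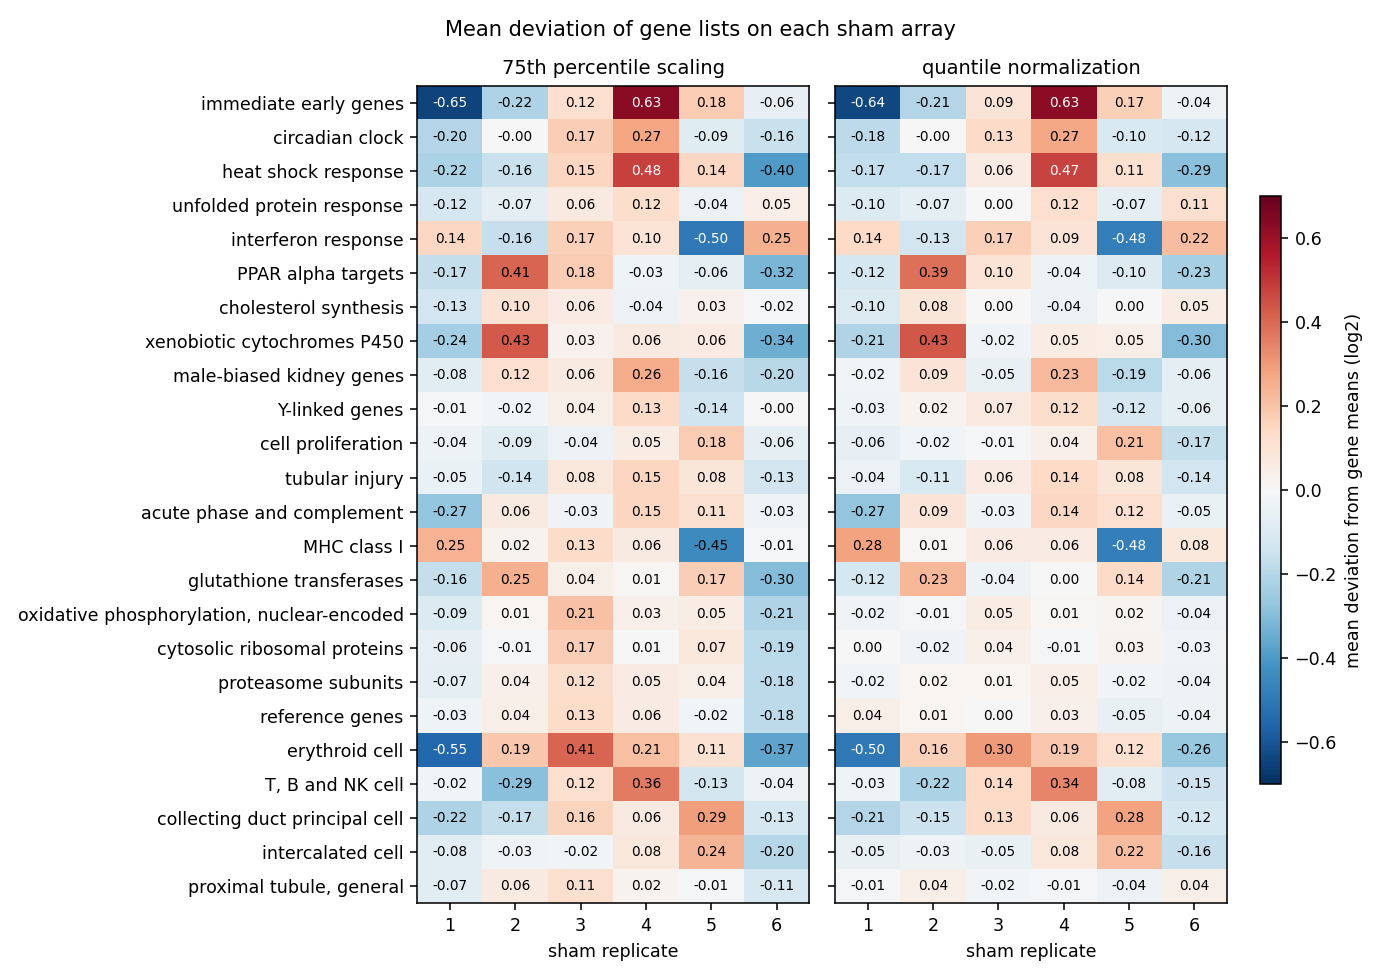
Mean deviation of each list's genes from their own means (log2 units, printed and coloured) on each sham array (x axis, replicate number), with 75th percentile scaling on the left and quantile normalization on the right. Immediate early genes keep −0.65 and −0.64 in sham 1 and 0.63 in sham 4 under both, whereas oxidative phosphorylation genes go from 0.21 to 0.05 in sham 3.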

How the data were processed

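Kidney RNA of 6 sham samples was measured on single-colour Agilent arrays, and 18 arrays of the other groups were not used. The deposited scanner files hold spot intensity values that Agilent Feature Extraction 12.1.1.1 had background-subtracted and detrended, per the file headers (version 11.5.1.1, and limma, per the submitters' processing notes). The deposited value table holds log2 values, whose steps no header or label records, and served as an alternative. Normexp on median signals followed by quantile normalization came within 0.1 of 188428 of its 188454 values. The deposited values are thus not an alternative separate from normexp and quantile normalization. From the scanner files, control spots and 20 probe values marked as outliers were dropped, repeated spots were averaged, and the log2 processed signal minus the array's 75th percentile was taken. Each gene was represented by the named probe of highest mean.

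The 3 slides were compared with limma 3.58.1 (R 4.3.3) at an adjusted p under 0.05, which was tested on simulated data. The remaining values are descriptions. Alternatives were normexp background correction (offset 50), on median signals because these files hold no mean signals, quantile normalization, the 75th percentile over detected probes, the deposited values, the median over a gene's probes, outlier spots kept, other detection filters and each array left out. Genes were named as the 30 of highest level, the 25 of largest and 10 of smallest SD, leading members of 79 lists (859 of 869 genes measured), isozyme family members and leading slide calls. The members and lists were chosen with earlier results of these data known. The pancreatic list of 25 genes, the genes with gaps of at least 3 log2 units and the omission of slide 1 were chosen after seeing the data. Some genes are not reported here. The precision is limited by the number of arrays.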

Additional observations from a re-analysis of the deposited data

Results flagged for a closer look

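On each of the following, 1 array lay apart from the other 5, its gap to the nearest other array exceeding Dixon's 95% limit for 6 samples. Of 15730 genes above background and with a value kept on every array, 772 (4.91%) met this limit, and chance alone gives about 1 in 20. Of the 167 genes named here, 12 did. Some of these, such as Mfsd4b5 and Gstp3, were named for a large SD or a wide gap. Their count thus cannot be set against the share over all genes. BC018473, Gstp3 and Slc34a2 were not among the 15730, as they were not above background on every array. The gap took 0.944 of the range for Mfsd4b5 (sham 4), 0.889 for BC018473 (sham 2), 0.824 for H2-DMb1 (sham 5), 0.813 for H2-Eb1 (sham 1), 0.810 for Pla2g2c (sham 5) and 0.793 for Gstp3 (sham 6). It took 0.779 for Lcn2 (sham 2), 0.727 for Isg15 (sham 5), 0.661 for Slc10a1 (sham 5), 0.652 for Adnp (sham 2), 0.650 for Ttc38 (sham 5) and 0.630 for Slc34a2 (sham 5), which was not above background on any array.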

How the results depend on the processing

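The number of genes detected on all sham arrays was 15736 and ran from 15598 to 16285 under the probe median, the filter of 5 of 6 arrays and each array left out. Of the 30 brightest genes, 28 to 30 stayed among the 30 under every other setting run, against 15 with the median over a gene's probes. The median SD of 0.18 fell to 0.12 with normexp on median signals and to 0.12 with the deposited values. The 69 slide calls became 21 with normexp, 5 with quantile normalization and 159 with the 75th percentile over detected probes. With the deposited values they became 0 (limma, 15111 genes tested, 1558 at an unadjusted p under 0.05). These values hold only probes above background on every sham array, so called genes seen on fewer arrays were not tested there. With the main scaling, the test limited to genes above background on every array gave 86 calls (15730 tested). Leaving out 1 array gave 0 to 4 calls with 1 slide then holding 1 array, and leaving out both arrays of slide 1, chosen after seeing the data, gave 0 (limma, 2266 at an unadjusted p under 0.05). The cause of each change was not tested. Of the 25 genes of largest SD, 17 to 25 were shared under the other scalings and 15 without slide 1. Hdc had the largest SD under each setting except the deposited values, where Azgp1 did (2.68). No paired analysis was possible because no groups were compared.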
